A study of Mus musculus with 2 samples.

Results

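Barcodes that held at least 100 and fewer than 200 UMIs (unique molecular identifiers, each marking 1 captured RNA molecule) are described here in droplet-based 3′ scRNA-Seq libraries of mouse retina. They were selected by their UMI total alone, with no other filter, and are called low-UMI barcodes. There were 55888 of them among 2981801 barcodes with at least 1 UMI. The WT library held 10955 low-UMI barcodes, with 1675177 UMIs (2.15% of the library's UMIs). The ND6 library held 44933, with 6506160 UMIs (8.10%). Each library came from the retina of male C57BL/6J mice aged 7 months, 1 library (replicate 1) per genotype. The ND6 mice carry G13997A in the mtDNA, a mutation that replaces a proline with a leucine in the complex I subunit ND6. Both retinas were dissociated with trypsin and papain, and the ND6 line is kept by crossing mutant females with WT males.

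A droplet library holds many more barcodes than cells. A barcode without an intact cell still collects RNA that floats in the suspension, pieces of broken cells, and free mitochondria. In the retina, rods are by far the most numerous cells. Their outer segments, inner segments packed with mitochondria, and synaptic terminals break off easily, while Müller glia and ganglion cells have long processes that dissociation tears. The comparison class was cells, a word used here for barcodes that had over 400 UMIs, over 200 genes and a share of mtDNA-encoded UMIs no higher than 20% (12529 in the WT library and 18395 in the ND6 library).

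The name under which these barcodes were proposed is debris, and by their RNA they had no common profile. Against the summed UMIs of cells, WT low-UMI barcodes were rich in mtDNA-encoded RNA and poor in *Malat1*, a noncoding RNA of the nucleus. Among nuclear genes they were rich in ribosomal protein mRNA. WT barcodes of 1000 to 2999 UMIs, with no other filter, came close to them in both nuclear traits. Of nuclear-gene UMIs these had 13.7% ribosomal protein mRNA, against 13.6% in low-UMI barcodes. The 5 nuclear noncoding RNAs, almost entirely *Malat1*, had 1.27% against 1.51%. In ND6 the mtDNA-encoded share of the summed UMIs was 1.48-fold that of cells, but the median barcode had 8% against 8.28% in cells. *Malat1* in the summed UMIs of ND6 was near its level in cells. Against cells, both libraries had an excess of Müller and ganglion cell markers and a shortage of globin and immediate early mRNAs, with both shortages smaller in ND6. Whether these barcodes held broken cells, free mitochondria or floating RNA was not tested.

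With 1 library per genotype there is no replicate spread, so no test was made. Intervals in parentheses are exact 95% intervals (Clopper-Pearson for shares, conditional for ratios), and they cover counting error only. Genotype and library cannot be told apart. The UMI total chose the members, and the 20% limit chose the cells, so the height of the mtDNA-encoded share over that of cells is a description. Total UMIs per library were 77958836 (WT) and 80358255 (ND6). In all, 132 barcodes were low-UMI in both libraries, 62 low-UMI barcodes of WT were cells of ND6, and 137 low-UMI barcodes of ND6 were cells of WT. Of the low-UMI barcodes, 9 in WT and 1 in ND6 were 1 base away from a cell barcode of their own library.

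The window held a different stretch of each library's barcodes. In steps of 10 UMIs, the ND6 library had a sharp peak of 6809 barcodes from 130 to 139 UMIs, and the window covered it. The WT library had a low, wide hill, highest in the step that starts at 140 UMIs with 1269 barcodes, and the window covered only its left part. The barcodes of 200 to 400 UMIs outnumbered the low-UMI barcodes in WT (15249 against 10955), whereas in ND6 they were fewer (13122 against 44933). The limits of the window did not mark a gap. In WT, 73 barcodes held 99 UMIs, the last total outside, and 46 held 100 UMIs, the first inside. At the upper limit 121 held the last total inside and 117 held 200 UMIs. In ND6 these numbers were 214 and 195 at the lower limit, and 176 and 177 at the upper limit.

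**Figure D1:**
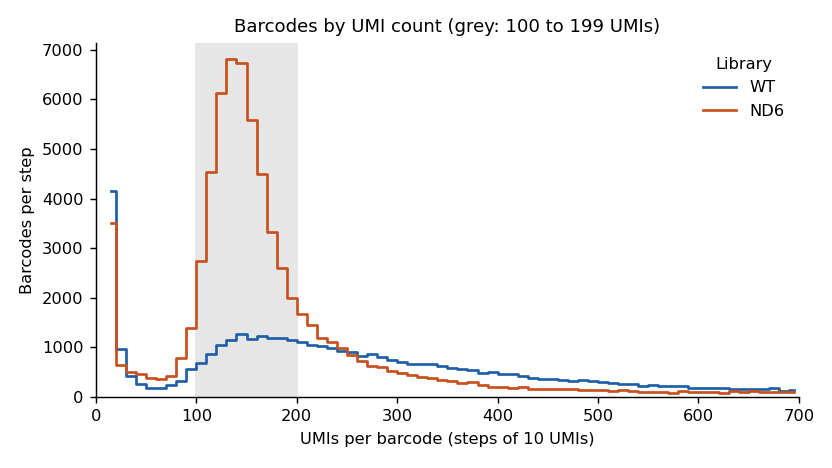
Number of barcodes (vertical axis) in steps of 10 UMIs per barcode (horizontal axis) in the WT and ND6 libraries, with the window of the low-UMI barcodes in grey. The ND6 peak of 6809 barcodes at 130 to 139 UMIs lies inside the window, and the WT hill, with at most 1269 barcodes per step, runs on beyond it.

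Single barcodes show what such a member holds. The sequences are the 16 bases that 10x beads add to every molecule of a droplet, in lower case, for the barcodes nearest to the 5th, 50th and 95th percentile of the mtDNA-encoded share in each library.
WT, 5th percentile: catggatcacgtacat
WT, 50th percentile: agtcaactcaaaccca
WT, 95th percentile: cattgagcacggtgtc
ND6, 5th percentile: aagcatcagtggttaa
ND6, 50th percentile: aaagtcctccaatctt
ND6, 95th percentile: aattcctagattgatg
The WT barcode at the 50th percentile had 138 UMIs from 88 genes, 50 of them mtDNA-encoded UMIs, and its leading nuclear genes were *Sag* and *Gngt1* with 3 UMIs each. The WT barcode at the 95th percentile had 112 mtDNA-encoded UMIs of 193, and no nuclear gene in it had more than 2 UMIs. The ND6 barcode at the 50th percentile had 150 UMIs from 133 genes, 12 of them mtDNA-encoded UMIs, with *Malat1* first at 3 UMIs. In the ND6 barcode at the 5th percentile, 117 of 127 genes were seen with a single UMI. Apart from mtDNA-encoded genes, these barcodes hold thin samples of many genes, with the rod genes *Sag* (arrestin), *Gngt1* (transducin gamma subunit) and *Gnat1* (transducin alpha subunit) among the first.

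RNA from the mtDNA was the main content by which the WT and ND6 low-UMI barcodes stood apart. The mtDNA encodes 13 subunits of the respiratory chain and ATP synthase, and their mRNAs stay inside mitochondria, and their share is known to be high where cytoplasmic RNA has been lost or mitochondria are free. They took 37.1% (37.0 to 37.1) of low-UMI barcode UMIs in WT and 10.4% (10.3 to 10.4) in ND6, against 8.19% of cell UMIs in WT and 7.02% in ND6. These are 4.53-fold and 1.48-fold the level in cells. Against cells chosen without the 20% limit, the log2 ratio was 1.52 in WT and 0.23 in ND6, in place of 2.18 and 0.56. The median low-UMI barcode had 36.2% mtDNA-encoded UMIs in WT (5th to 95th percentile 12.9% to 58.0%) and 8% in ND6 (2.16% to 25%). The median cell had 11.6% in WT and 8.28% in ND6, so in ND6 the typical low-UMI barcode was not above the typical cell. In WT, 87.1% (86.4 to 87.7) of low-UMI barcodes exceeded 20%, against 9.40% (9.13 to 9.67) in ND6. Both distributions were wider than counting allows. The SD of the share was 13.6 percentage points in WT and 7.47 in ND6, where counting alone gives 3.97 and 2.57.

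**Figure D2:**
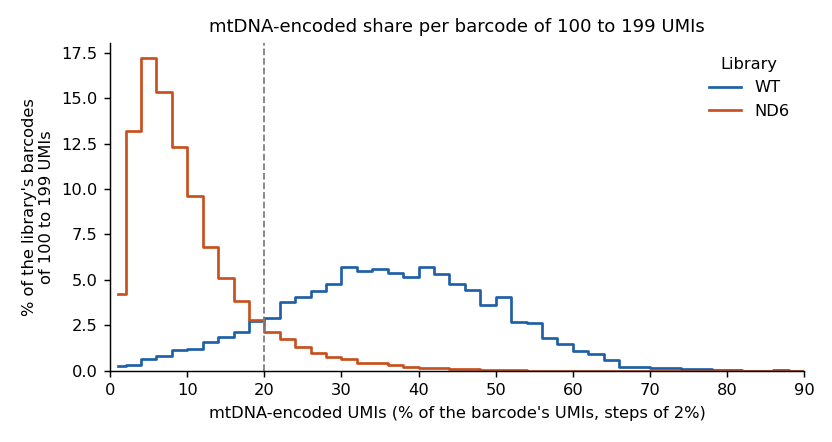
Share of mtDNA-encoded UMIs per low-UMI barcode (horizontal axis, in % of the barcode's UMIs) against the percent of each library's low-UMI barcodes (vertical axis), with a dashed line at 20%. In WT 87.1% of barcodes lie above the line, and in ND6 9.40%.

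Within the mtDNA-encoded RNA, the 13 mRNAs kept similar proportions in low-UMI barcodes and in cells. *mt-Atp6* and *mt-Co3*, a subunit of ATP synthase and one of complex IV, led both. *mt-Atp6* took 18.0% of mtDNA-encoded UMIs in WT low-UMI barcodes and 18.8% in WT cells, and 18.9% in both classes of ND6. *mt-Co3* took 18.2% and 17.7% in WT, and 18.3% and 18.9% in ND6. All 13 were above the level in cells by at least 2-fold in WT (log2 ratio 1.98 for *mt-Nd5* to 2.39 for *mt-Nd2*). In ND6 1 of 13 was, *mt-Atp8* at 1.05, and the lowest was *mt-Co2* at 0.48. *mt-Nd6*, the mutated gene (mm10, chromosome M, 13552 to 14070, minus strand), had 352 UMIs in WT low-UMI barcodes (210.1 CPM, counts scaled to 1000000 UMIs) and 333 in ND6 (51.2 CPM). In cells it had 44.8 CPM in WT and 26.8 CPM in ND6. As a share of mtDNA-encoded UMIs it was 0.0567% in WT low-UMI barcodes and 0.0494% in ND6, beside 0.0547% and 0.0381% in cells. These counts do not show the mutated base itself. *mt-Atp8* shares bases with *mt-Atp6*, and *mt-Nd4l* with *mt-Nd4*, so the split of reads within these pairs is uncertain.

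The share of mtDNA-encoded RNA was not constant along the UMI scale. In WT it was 26.6% at 100 to 119 UMIs and 42.5% from 180 UMIs to the upper limit, reached 52.9% at 300 to 400 UMIs, and was 7.49% at 3000 UMIs or more. In ND6 it was 7.62% at 100 to 119 UMIs and 14.9% from 180 UMIs to the upper limit, reached 26.0% at 300 to 400 UMIs, and was 6.78% at 3000 UMIs or more. Both libraries therefore had their highest share just above the window. *Malat1*, a long noncoding RNA that stays in the nucleus, took 1.58% of nuclear-gene UMIs at 100 to 119 UMIs and 1.39% from 180 UMIs to the upper limit in WT. In ND6 it took 2.89% and 2.69%. Among barcodes of 100 UMIs or more, its share was lowest at over 400 and under 1000 UMIs in both, at 0.840% and 1.58%, and was 3.92% and 3.27% at 3000 UMIs or more.

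**Figure D3:**
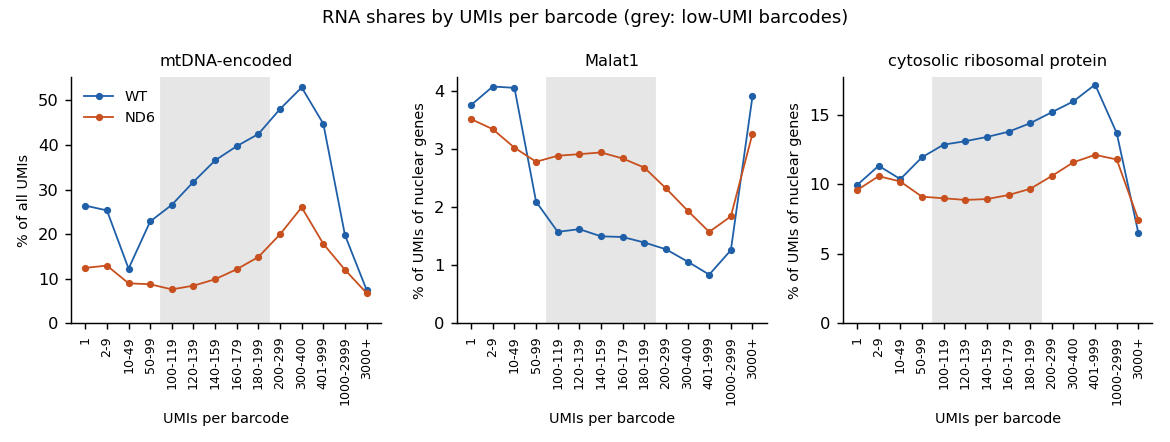
Share of mtDNA-encoded genes in all UMIs, and of Malat1 and the cytosolic ribosomal protein genes in the UMIs of nuclear genes (vertical axes, in %), by UMIs per barcode (horizontal axis), with the window in grey. The mtDNA-encoded share is highest at 300 to 400 UMIs, at 52.9% in WT and 26.0% in ND6, and Malat1 is lowest at over 400 and under 1000 UMIs, at 0.840% and 1.58%.

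Because the mtDNA-encoded RNA takes such different room in the libraries, every nuclear gene is diluted more in WT. Of 7863 genes tested in WT (an expected count of at least 20 UMIs in the low-UMI barcodes), 62 were higher than in cells by at least 2-fold (0.789%) and 2990 were lower (38%). The median gene had a log2 ratio of −0.80. With mtDNA-encoded genes left out of every total, 129 of 7850 were higher (1.64%), 881 were lower (11.2%), and the median was −0.26. In ND6, 1081 of 11101 genes were higher (9.74%) and 190 were lower (1.71%), with a median of −0.04. With mtDNA-encoded genes left out these were 1133 (10.2%), 152 (1.37%) and 0.01. Since all 13 mtDNA-encoded genes were called higher in WT, the scale without them is given below for nuclear genes, as a share of nuclear-gene UMIs. Of the 7862 genes tested in both libraries, 43 were higher by at least 2-fold in both on the total scale, 60 were lower in both, and 13 were past 2-fold in opposite directions. On the nuclear scale these were 76, 36 and 2 of 7849.

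Of the cell type marker lists, that of rods took the largest share of nuclear-gene UMIs. The lists differ in their number of genes and in expression level, so the RNA supplied by each cell type was not measured. The 17 rod phototransduction genes took 10.5% of nuclear-gene UMIs in WT low-UMI barcodes and 8.78% in ND6, against 10.3% and 10.4% in cells. In log2 this is 0.03 (0.02 to 0.04) in WT and −0.24 (−0.25 to −0.24) in ND6. The WT value is −0.51 when mtDNA-encoded UMIs are counted in the totals and 0.29 when the median gene is set to 0, so no direction can be given for WT, while ND6 was below the cells on each scale. Members of the list differed. *Rgs9*, which speeds the recovery of the rod after light, was lower on the nuclear scale by 0.82 in log2 in WT and by 1.36 in ND6. *Gngt1* had 0.49 in WT and −0.05 in ND6. On the total scale 3 of 17 genes were lower by at least 2-fold in WT, where 38% of all genes tested were, and 1 of 17 in ND6, where 1.71% were, and none was higher. The 9 rod markers, most of them in the same list, had −0.00 (−0.01 to 0.01) and −0.21 (−0.21 to −0.20).

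Genes of the outer segment and cilium, the light-sensing stack of membranes and its stalk, were below the cells in both libraries on every scale (12 genes, log2 ratio −0.30 in WT and −0.34 in ND6 on the nuclear scale). In WT, 8 of 12 were lower by at least 2-fold on the total scale (38% of all genes), and in ND6 0 of 12 (1.71%). The 12 photoreceptor synapse genes had −0.00 (−0.03 to 0.03) and −0.11 (−0.13 to −0.10). The 17 glycolysis genes had 0.21 and −0.07. Both lists were below the cells in WT on the total scale (−0.55 and −0.34) and above them with the median gene set to 0 (0.26 and 0.47), so no direction is given for WT. Cone markers, from *Arr3*, *Opn1sw* and others, had −0.57 (−0.63 to −0.51) in WT and 0.04 (0.02 to 0.06) in ND6. The summed cone RNA was thus at about the level in cells in ND6 and at 0.673 of it in WT. When each barcode counted equally, the total-scale log2 ratio of the cone markers was −0.25 in WT and 0.63 in ND6, in place of −1.12 and −0.01. After every barcode was thinned to 50 nuclear-gene UMIs, 65.7% (64.8 to 66.6) of low-UMI barcodes in WT and 55.5% (55.1 to 56.0) in ND6 held at least 3 UMIs of at least 2 rod markers. Among cells the shares were 72.5% and 64.7%. Thinned instead to 100 UMIs in all, which leaves fewer nuclear-gene UMIs where the mtDNA-encoded share is high, the shares were 77.7% and 88.2% in low-UMI barcodes and 89.6% and 85.2% in cells. Before thinning they were 92.9% and 96.8% in low-UMI barcodes and 99.9% in cells of both. Rod markers made up 6.96% and 5.98% of nuclear-gene UMIs in the low-UMI barcodes, so that a random draw from the summed RNA also often holds 3 of them, and a barcode that reached this level need not hold RNA of rods alone.

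RNA of Müller glia and of ganglion cells was more abundant in low-UMI barcodes than in cells in both libraries, and that of bipolar and amacrine cells in ND6. Müller glia span the whole retina, and their markers include *Glul*, which makes glutamine from glutamate. The 10 Müller markers took 0.345% of nuclear-gene UMIs in WT low-UMI barcodes and 0.410% in ND6, against 0.121% and 0.132% in cells, or 2.85-fold and 3.10-fold. When each barcode counted equally, their total-scale log2 ratio in ND6 was 0.88 in place of 1.58, under 2-fold, and in WT it was 1.06 in place of 0.97. *Glul* (chromosome 1, 153899944 to 153909723, plus strand) had 1394 UMIs in WT (832.2 CPM) and 10526 in ND6 (1618 CPM), 3.79-fold and 4.06-fold the level in cells on the total scale. *Rlbp1*, a retinaldehyde-binding protein, had a nuclear-scale log2 ratio of 2.01 in WT and 1.49 in ND6. *Aqp4*, a water channel, had 0.84 from 22 UMIs in WT and 2.80 from 611 UMIs in ND6. On the total scale 3 of 6 Müller markers tested were higher by at least 2-fold in WT (0.789% of all genes) and 9 of 10 in ND6 (9.74%). The excess of the list over cells was not particular to the window. In barcodes of 200 to 400 UMIs the list took 0.375% of nuclear-gene UMIs in WT and 0.530% in ND6, more than in low-UMI barcodes. In the barcodes that the mtDNA limit for cells removes it took 0.788% in ND6, but 0.190% in WT, less than in low-UMI barcodes.

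RNA of retinal ganglion cells (RGCs), whose axons form the optic nerve, was also above its level in cells, with fewer molecules. On the nuclear scale, the 9 RGC markers were at 3.58-fold the level in cells in WT (366 UMIs) and at 4.46-fold in ND6 (3841 UMIs). Low-UMI barcodes held 16.8% of all RGC marker UMIs of the ND6 library, while holding 8.10% of its UMIs, and 2.70% in WT, while holding 2.15%. *Nefl*, a neurofilament subunit of axons, had 146.3 CPM in WT and 323.5 CPM in ND6, 3.35-fold and 3.95-fold the level in cells on the total scale. The size of the ratio depended on the mtDNA limit for cells. The barcodes that the limit removes were richer in RGC markers (0.0671% of nuclear-gene UMIs in WT and 0.236% in ND6) than the low-UMI barcodes (0.0347% and 0.0659%). Without the mtDNA limit the total-scale log2 ratio of the list was 0.47 in place of 1.30 in WT, and 1.32 in place of 2.10 in ND6. That of *Nefl* was 0.67 in place of 1.74 in WT, and 1.01 in place of 1.98 in ND6. In ND6, 8 of 8 markers tested were higher by at least 2-fold, and in WT 1 of 2.

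For other cells of the inner retina and vessels, folds of lists are given on the nuclear scale. Amacrine markers, such as the GABA-making enzymes *Gad1* and *Gad2*, were at 3.11-fold the level in cells in ND6 (1656 UMIs) and at 1.53-fold in WT (90 UMIs). Bipolar markers were at 2.04-fold in ND6 and at 1.38-fold in WT. On the total scale the WT log2 ratios were 0.07 (−0.25 to 0.37) for amacrine and −0.08 (−0.19 to 0.03) for bipolar markers, so no direction is given for WT. In ND6, 7 of 10 bipolar and 6 of 7 amacrine markers were higher by at least 2-fold on the total scale, and in WT 0 of 6 and 0 of 1. Horizontal cell markers had 28 UMIs in WT and 208 in ND6, at 5.66-fold and 4.27-fold. Endothelial markers had 57 and 841 UMIs, at 2.02-fold and 3.82-fold. Of the 4 endothelial markers tested in ND6, 2 were above the cells on the nuclear scale and 2 below, and in WT 0 were tested. In ND6 the endothelial UMIs came mostly from *Kdr* (346) and *Flt1* (455), receptors of VEGF, and the defining marker *Cldn5* was at 0 UMIs in low-UMI barcodes of both libraries, as was *Cdh5*. Pericyte and smooth muscle markers had 12 and 54 UMIs, and crystallins, proteins abundant in the lens, some of them also made in the retina, 237 and 762 UMIs, at 3.75-fold and 2.59-fold. With equal weights the total-scale log2 ratio of the crystallins in ND6 was 0.55 in place of 1.32.

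**Figure D4:**
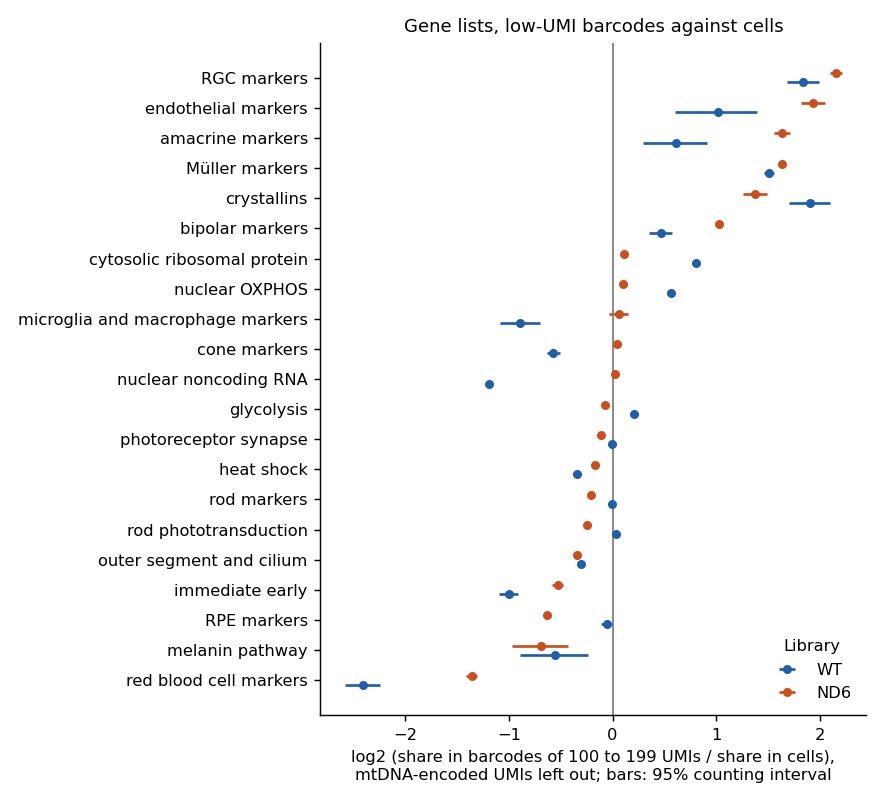
Log2 ratio of each gene list's share in low-UMI barcodes over that in cells (horizontal axis, mtDNA-encoded UMIs left out, bars for the 95% counting interval) for lists with at least 50 UMIs in both libraries (vertical axis). RGC and Müller markers lie to the right in both libraries, at 1.84 and 1.51 in WT and 2.16 and 1.63 in ND6, and red blood cell markers to the left, at −2.41 and −1.36.

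RNA of red blood cells was scarce. Red blood cell markers, the globin genes and *Alas2*, took 0.0272% of nuclear-gene UMIs in WT low-UMI barcodes and 0.0516% in ND6, against 0.144% and 0.132% in cells. *Hbb-bs*, the adult beta-globin, was lower by 2.79 in log2 on the total scale in WT and by 1.35 in ND6. When each barcode counted equally, the list's total-scale log2 ratio in ND6 was −0.61 in place of −1.41. Microglia and macrophage markers had −0.89 (−1.09 to −0.70) in WT on the nuclear scale and 0.06 (−0.03 to 0.15) in ND6. With equal weights their total-scale log2 ratio in ND6 was −0.67 in place of 0.01. The retinal pigment epithelium (RPE) lies behind the photoreceptors and supplies them with retinal. Its markers had −0.05 (−0.11 to 0.00) and −0.63 (−0.67 to −0.60), and in WT their sign turned with the scale (−0.60 on the total scale, 0.21 with the median gene set to 0). Their total-scale log2 ratio in ND6 was −0.69, and it was −1.91 when each barcode counted equally. Melanin pathway genes had 79 and 119 UMIs. Of tissues outside the retina, fibroblast markers had 3 UMIs in WT and 18 in ND6, skeletal muscle markers 6 and 69, corneal epithelium markers 0 and 1, and neutrophil markers 5 and 0.

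RNA kept in the nucleus was at different levels in the libraries. The 5 nuclear noncoding RNAs, almost entirely *Malat1*, took 1.51% of nuclear-gene UMIs in WT low-UMI barcodes against 3.46% in cells, 0.437 of the level. In ND6 they took 3.01% against 2.95%. With equal weights the total-scale log2 ratio in WT was −1.06 in place of −1.74, and in ND6 it was 0.43 in place of −0.02. On the total scale 2 of 5 of these genes were higher by at least 2-fold in ND6 (9.74% of all genes) and 0 lower. In WT 3 of 3 tested were lower (38%). *Malat1* (chromosome 19, 5795690 to 5802672, minus strand) had 15846 UMIs in WT (0.946% of all UMIs, cells 3.15%) and 167796 in ND6 (2.58%, cells 2.69%). *Kcnq1ot1*, an imprinted noncoding RNA, was lower on the nuclear scale by 2.31 in WT and by 0.72 in ND6. The 83 cytosolic ribosomal protein genes took 13.6% of nuclear-gene UMIs in WT low-UMI barcodes against 7.77% in cells, 1.75-fold, and 9.09% against 8.39% in ND6, 1.08-fold. When each barcode counted equally, their total-scale log2 ratio was −0.21 in WT and −0.23 in ND6, in place of 0.26 and 0.06. The 81 genes for nuclear-encoded subunits of oxidative phosphorylation were at 1.48-fold in WT and 1.07-fold in ND6. Under equal weights their total-scale log2 ratios were −0.29 and −0.22, in place of 0.02 and 0.05. The total scale counts mtDNA-encoded UMIs, which dilute nuclear genes more in WT, and equal weights were not run on the nuclear scale. No direction under equal weights is therefore given for either list in WT.

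Immediate early genes, which cells switch on within minutes of stress, were lower in low-UMI barcodes. On the nuclear scale they had −1.0 (−1.09 to −0.91) in WT and −0.53 (−0.58 to −0.48) in ND6, and on the total scale 12 of 15 genes were lower by at least 2-fold in WT (38% of all genes) and 3 of 14 in ND6 (1.71%). In ND6, 4 of 14 genes were above the cells on the nuclear scale and 10 below, and in WT 15 of 15 were below. With equal weights the list's total-scale log2 ratio in WT was −0.83 in place of −1.55, and in ND6 −0.18 in place of −0.58. *Fos* had 202 UMIs in WT (120.6 CPM, cells 395.2 CPM) and 236 in ND6 (36.3 CPM, cells 97.2 CPM). Heat shock genes had −0.34 and −0.17.

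The genes that departed most from cells in both libraries included members of these groups. They were chosen for this ratio, so their values are a description. The 12 highest were *Glul*, *Calb2*, *Nefl*, *AY036118*, *Vim*, *Fxyd1*, *Cox4i2*, *S100a16*, *Spc25*, *Bc1*, *Gstm5* and *Kif5a*. *Calb2* (calretinin, a calcium-binding protein of amacrine and ganglion cells) was at 3.69-fold the level in cells in WT and 4.97-fold in ND6, from 81 and 817 UMIs. *Bc1*, a short noncoding RNA transported into dendrites, was at 6.56-fold in WT (1164 CPM, from 1950 UMIs) and 3.42-fold in ND6 (558.5 CPM, from 3634 UMIs). *Spc25*, a kinetochore subunit, was at 5.59-fold and 3.42-fold. *Vim* encodes vimentin, the filament of glia, and *Kif5a* a motor of axonal transport. Against cells chosen without the 20% limit the log2 ratio of *Kif5a* was 0.79 in WT and 0.82 in ND6, in place of 2.10 and 1.62, and that of *Bc1* was 1.67 and 1.03, in place of 2.71 and 1.77. *AY036118* (chromosome 17, 39847113 to 39848035, minus strand) lies within *Gm42418* (39846958 to 39848788, plus strand), a locus of ribosomal RNA sequence. *Gm42418* alone took 0.436% of UMIs in WT low-UMI barcodes and 1.32% in ND6, against 0.214% and 0.435% in cells, and since the loci overlap their reads may be split uncertainly.

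The 12 lowest were *Tmem108*, *March1*, *Hba-a1*, *Hba-a2*, *Fos*, *Sik2*, *Airn*, *Adamts3*, *Gm15882*, *Gm26621*, *Gm19667* and *Gm14508*. *Tmem108* had 77 UMIs in WT (46.0 CPM, cells 250.0 CPM) and 493 in ND6 (75.8 CPM, cells 294.0 CPM). *March1*, a ubiquitin ligase gene, had 69.8 CPM against 341.4 CPM, and 117.3 CPM against 345.4 CPM. *Airn* is an antisense RNA of an imprinted locus, with 6 and 38 UMIs. For *Gm15882*, with 6 UMIs in WT, the sign in WT turned to 0.29 in the low-UMI barcodes with at most 20% mtDNA-encoded UMIs.

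The nuclear genes high and low against cells differed in transcript length, in opposite order in the libraries. In WT, the 785 genes with the highest ratio to cells (10% of those tested) had a median length of 1326 bases (longest annotated transcript, GENCODE vM21, quartiles 855 and 2300). The 785 with the lowest had 5151 bases (3544 and 7438). In ND6 the 1109 highest had 4098 bases (2728 and 6373) and the 1108 lowest 3093 (1930 and 4706). The genes in between had 3199.5 bases in WT and 3076 (1915 and 4615) in ND6. In ND6 the lowest were thus close to the genes in between, and only the highest stood apart. Genes that are not protein-coding made up 19.7% of the lowest in ND6 and 5.61% in WT, and 3.16% and 3.95% of the highest.

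Compared with each other, the low-UMI barcodes of ND6 and WT differed more than the cells did, at depths that were not matched. Of 8243 genes tested, 2989 were at least 2-fold higher in ND6 (36.3%) and 25 lower (0.303%), with a median log2 ratio of 0.76. With mtDNA-encoded genes left out these were 1270 (15.4%) and 96 (1.17%) of 8230, with a median of 0.25. For the same 8243 genes in cells the counts on the total scale were 267 and 31, with a median of 0.02. The low-UMI sums held 1675177 UMIs in WT and 6506160 in ND6, against 54524401 and 62949610 in cells. Counting error therefore adds more to the low-UMI numbers, and how much was not tested. To turn the nuclear-gene profile of WT low-UMI barcodes into that of ND6, 16.2% of UMIs would have to change gene, over 7609 abundant genes. For cells this was 7.43%, and for the barcodes of 1 to 9 UMIs 8.58%. Among the classes compared (1 to 9 UMIs, 200 to 400 UMIs, cells, and the barcodes that the mtDNA limit removed), the low-UMI barcodes lay nearest to their neighbours of 200 to 400 UMIs, at 5.52% in WT and 5.48% in ND6. In WT they were nearer to the barcodes that the mtDNA limit removed (8.75%) than to cells (17.6%). In ND6 they were nearer to cells (9.36%) than to those barcodes (15.7%).

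The 8 genes with the highest ratio of ND6 over WT were *Slc17a6*, *Adam23*, *Apba2*, *Snhg11*, *Meg3*, *C130073E24Rik*, *Grm5* and *A330076H08Rik*. Most are known from neurons. *Meg3*, an imprinted noncoding RNA (chromosome 12, 109541001 to 109571726, plus strand), had 44 UMIs in WT low-UMI barcodes and 6858 in ND6, a log2 ratio of 5.33 (4.90 to 5.79) beside 2.0 in cells. *Snhg11* had 18 and 2962 UMIs, 5.41 (4.74 to 6.16) beside 2.24 in cells. *Slc17a6*, a vesicular glutamate transporter of ganglion cells, had 1 and 244 UMIs, and its ratio of 5.97 has a wide interval (3.48 to 11.28) beside 0.89 in cells. For each of these 3 genes the low-UMI ratio was above the one in cells. They were chosen for a high ratio in low-UMI barcodes, which favours this order, so it is a description. Several marker lists were higher as well. On the nuclear scale, on which the median gene had 0.25, amacrine markers were 1.73 (1.43 to 2.06) higher in log2 in ND6 than in WT, endothelial markers 1.42 (1.03 to 1.83), bipolar markers 1.13 (1.02 to 1.24), RGC markers 0.92 (0.77 to 1.08), cone markers 0.87 (0.80 to 0.93) and Müller markers 0.25 (0.20 to 0.30). In cells these values were 0.71, 0.50, 0.57, 0.61, 0.26 and 0.13. Of the 7 endothelial markers, only 2 had enough UMIs to be tested for ND6 over WT.

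The 8 lowest were *Igkc*, *mt-Nd4l*, *Cox8b*, *mt-Atp8*, *mt-Nd3*, *mt-Nd5*, *mt-Nd6* and *mt-Cytb*. *Igkc*, an immunoglobulin light chain gene, rested on 1 barcode of WT, which held all 97 UMIs. Without such barcodes its log2 ratio was 0.36 in place of −4.65. *Cox8b*, a complex IV subunit of heart and muscle, had 73 UMIs in WT and 49 in ND6, −2.53 (−3.09 to −1.99), and −2.24 in cells. *mt-Nd6* had −2.04 (−2.26 to −1.82), beside −0.74 in cells. On the nuclear scale cytosolic ribosomal protein genes were lower in ND6 by 0.58 (in cells higher by 0.11) and RPE markers by 1.0 (in cells by 0.42). Rod phototransduction genes had −0.26 on this scale and 0.25 on the total scale (in cells 0.01 and 0.03), so no direction is given for them.

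At a matched mtDNA-encoded share of 5% or more the libraries still differed. Under 5% some differences remained, while *Malat1* was higher in WT and ribosomal protein genes overlapped in their intervals. Low-UMI barcodes were sorted by that share, and nuclear genes were compared within each class. At 10% to 20%, *Malat1* took 1.33% of nuclear-gene UMIs in WT (1039 barcodes) and 2.84% in ND6 (12662 barcodes), and at 30% to 40% it took 1.48% (2996 barcodes) and 2.80% (891 barcodes). *Meg3* had 0.00250% and 0.123% in the first of these classes, and 0.00510% and 0.106% in the second. *Rps29*, a ribosomal protein gene, had 0.629% and 0.279%, then 0.656% and 0.301%. The rod phototransduction genes had 10.6% and 8.69%, then 10.5% and 8.74%. Within ND6 *Malat1* stayed between 2.78% and 2.94% in all 7 classes. Within WT it was between 1.33% and 1.55% from 10% upward, and the 250 barcodes of 5% to 10% had 1.93%, against 2.91% in ND6. In that class the cytosolic ribosomal protein genes were at 12.2% in WT and 9.03% in ND6. Under 5%, the 94 WT barcodes had 3.69% (3.36 to 4.04) and the 11722 ND6 barcodes 2.89% (2.86 to 2.92), so that *Malat1* was higher in WT there. Also under 5%, the cytosolic ribosomal protein genes were at 8.95% (8.45 to 9.48) in WT and 9.10% (9.05 to 9.14) in ND6, and *Rps29* at 0.323% (0.230 to 0.442) and 0.282% (0.273 to 0.290), with overlapping intervals. *Gm42418* was at 0.373% (0.272 to 0.499) and 1.46% (1.44 to 1.48), and the rod phototransduction genes at 9.68% (9.16 to 10.2) and 8.89% (8.85 to 8.94). *Meg3* was at 0 UMIs in these WT barcodes and at 0.113% in ND6.

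**Figure D5:**
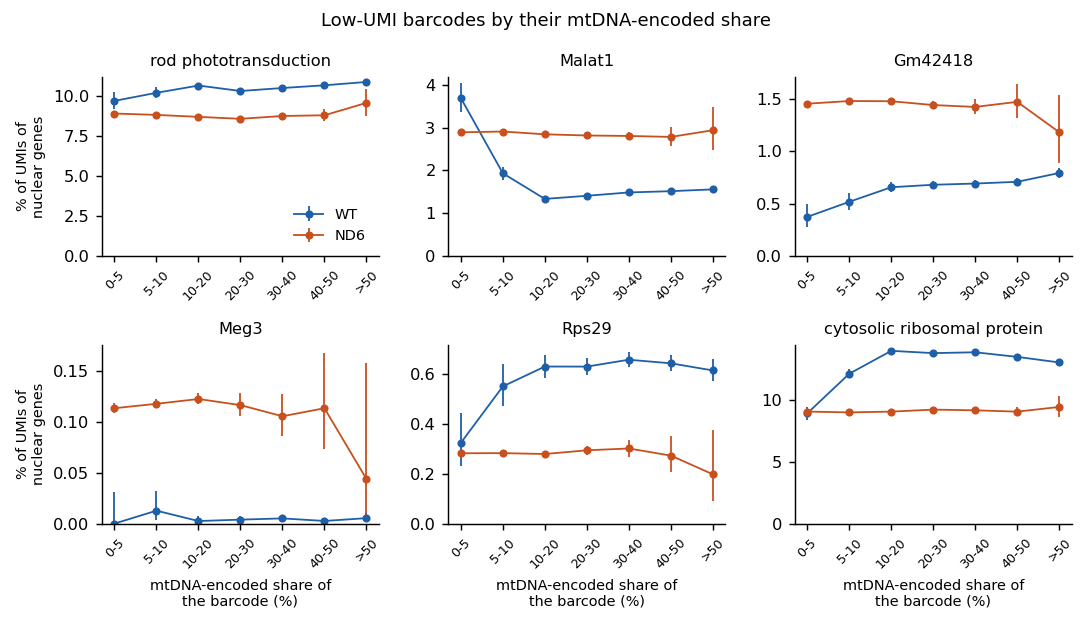
Share of the rod phototransduction genes, Malat1, Gm42418, Meg3, Rps29 and the cytosolic ribosomal protein genes in the UMIs of nuclear genes (vertical axes, in %, bars for the 95% counting interval) by the mtDNA-encoded share of the low-UMI barcode (horizontal axes). In the classes from 10% to 50% Malat1, Meg3 and Gm42418 are higher in ND6 and Rps29 and the rod phototransduction genes in WT, the last at 10.6% and 8.69% in the class of 10% to 20%.

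A few nuclear genes varied over low-UMI barcodes well beyond counting error. For each nuclear gene with at least 200 UMIs, the variance of its count over barcodes was divided by that of random draws at the library's mean share. The median of this ratio was 1.06 over 799 WT genes and 1.04 over 5039 ND6 genes. Most of these genes had far fewer UMIs than there were barcodes, and at such counts the ratio is near 1 unless single barcodes hold many of the UMIs, so the medians do not show that barcodes were alike. No WT gene and 6 ND6 genes exceeded 1.5. The 6 were *Hba-a1* (3.80), *Hbb-bs* (3.24) and *Hba-a2* (2.51) of red blood cells, *Ttr* (1.98), *Ptgds* (1.76) and *Trf* (1.52), genes that the RPE is known to express. A single barcode held 61 of the 1670 *Hbb-bs* UMIs, and likewise 33 of 628 for *Hba-a1* and 16 of 448 for *Hba-a2*. The ratio was not computed without such barcodes, so the globin values need not show a spread over many barcodes. For the 13 mtDNA-encoded genes together the ratio was 12.4 in WT and 10.5 in ND6. In WT the next were the cytosolic ribosomal protein genes at 1.89, microglia and macrophage markers at 1.72 and nuclear noncoding RNAs at 1.49. In ND6 they were red blood cell markers at 5.94, with 110 of 3007 UMIs in 1 barcode, and RPE markers at 2.23.

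Marker RNA of cell types other than rods seldom came together in 1 barcode at this depth. After thinning to 50 nuclear-gene UMIs, at least 3 UMIs of at least 2 Müller markers were found in 26 of 10834 low-UMI barcodes in WT (0.240%, 0.157 to 0.351) and in 91 of 44926 in ND6 (0.203%, 0.163 to 0.249), against 33 of 12529 cells in WT (0.263%, 0.181 to 0.370) and 92 of 18395 in ND6 (0.403% to 0.613%). For cone markers the shares were 0.0646% and 0.127% in low-UMI barcodes, against 0.910% and 1.14% in cells. For RPE markers they were 0.111% and 0.0824%, against 1.17% and 2.87%. The level is too high for RGC markers at this depth, since no more than 1 cell of each library reached it. The 366 RGC marker UMIs of WT lay in 327 low-UMI barcodes, with at most 3 in 1 barcode, and the 3841 of ND6 in 3548, with at most 5.

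At an equal number of nuclear-gene UMIs, low-UMI barcodes drew on about as many nuclear genes as cells did. After thinning to 50 nuclear-gene UMIs, the median was 47 genes in low-UMI barcodes of both libraries, 46 in WT cells and 47 in ND6 cells. A draw of 50 UMIs holds at most 50 genes, and these medians lie near that ceiling. They therefore cannot show whether the classes differ in the number of genes expressed. Of the low-UMI barcodes, 121 in WT and 7 in ND6 had fewer nuclear-gene UMIs and were left out. Thinned to 100 UMIs in all, the median of all genes was 67 in WT low-UMI barcodes and 84 in WT cells, and 88 and 86 in ND6. Without thinning the medians were 93 and 900 in WT, and 119 and 768 in ND6.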

How the data were processed

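Per the labels and the methods of the study, single-cell suspensions of retina were run on the 10x Chromium 3′ kit, and reads were processed with Cell Ranger 3.0.2 on mm10. The annotation release is not given in the sources used here. The authors deposited unnormalized UMI counts for 32285 genes over the whole list of 6794880 barcodes, with no filter for cells, so that low-UMI barcodes are included. Further libraries were not analysed here.

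UMIs were summed per gene over low-UMI barcodes and over cells and scaled to 1000000 UMIs (CPM) in Python 3.11.15 with SciPy 1.17.1. A gene was tested for size where the pooled count predicted at least 20 UMIs in the low-UMI barcodes (for ND6 over WT, in each library), and called at a 2-fold ratio. A sum of 0 was set to 3 counts. Intervals (95%) cover counting error only. Depth was 77958836 (WT) and 80358255 (ND6) UMIs. Doublets were not called. No clustering was done. Named genes were list members, the 15 with the highest share, the 12 highest and 12 lowest ratios to cells (by the library nearer to 0), and the 8 highest and 8 lowest of ND6 over WT; 1 of them is not reported here. Variance over barcodes was compared with binomial draws, and barcodes were thinned without replacement. The ratios and intervals were tried on simulated Poisson sums. These follow the model that the intervals assume and hold no spread between barcodes, so they cannot test the intervals against such spread. Lengths and positions came from GENCODE vM21 (mm10), in which all 254 named genes were found.

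The window, the 28 gene lists and the named-gene rule were chosen with earlier results of these data known. Alternatives were another scaling (mtDNA-encoded genes left out, or the median gene set to 0), other cells (no mtDNA limit, or at least 1000 UMIs), the window below and from 150 UMIs, equal weight per barcode, and an expected count of 5. After the data were seen, low-UMI barcodes with at most 20% mtDNA-encoded UMIs, sums without barcodes in which 1 nuclear gene held at least 25% of UMIs, sums without barcodes found in both libraries, and thinning to 50 nuclear-gene UMIs beside 100 UMIs in all were added.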

Additional observations from a re-analysis of the deposited data

Results flagged for a closer look

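For 5 genes the ratio of low-UMI barcodes to cells was below 1 in one library and above 1 in the other, with both counting intervals clear of 1, on the total scale and with mtDNA-encoded genes left out. The genes were among those chosen for their ratio of ND6 over WT, and the difference was not tested. *Meg3* had a log2 ratio of 1.85 in ND6 and −1.47 in WT. *Snhg11* had 1.81 and −1.35. *C130073E24Rik* had 0.95 and −3.72, the latter from 1 UMI in low-UMI barcodes, and *A330076H08Rik* had 0.39 and −3.66, from 3 UMIs. *Igkc* had −2.29 in ND6 and 11.62 in WT, where 1 barcode of 156 UMIs held all 97 of its UMIs.

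Below the window, in barcodes of 10 to 99 UMIs, 2 marker lists of cells foreign to the retina were at least 2-fold above their share in both low-UMI barcodes and cells. In WT the neutrophil markers had 206 UMIs in 92 barcodes (0.0930% of UMIs, 0.0807 to 0.107), 112 of them from *S100a9*, against 5 in low-UMI barcodes, 1 in cells and 0 in the same class of ND6. In ND6 the fibroblast markers had 78 UMIs in 72 barcodes (0.0211%, 0.0167 to 0.0263), 60 of them from *Col1a1*, against 18 in low-UMI barcodes, 37 in cells and 4 in the same class of WT.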

How the results depend on the processing

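In WT, low-UMI barcodes over cells, 0.789% of genes were higher (62) and 38.0% lower (2990). With mtDNA-encoded genes left out these were 1.64% (129) and 11.2% (881), with the median gene set to 0 4.13% (325) and 4.83% (380), below 150 UMIs 0.576% (28) and 30.9% (1505), and with at most 20% mtDNA-encoded UMIs 0.955% (16) and 13.4% (225). From 150 UMIs 0.604% (39) were higher, and with an expected count of 5 1.87% of 10621. With equal weights 11.1% (870) were lower. Of all called genes, 2.03%, 12.8% and 46.1% were higher under these 3 scalings in the order given. In ND6, 9.74% were higher (1081) and 1.71% lower (190). Below and from 150 UMIs 6.61% (648) and 5.50% (524) were higher, with equal weights 0.973% (108) were lower, and an expected count of 5 gave 15.03% (2034) and 2.73% (369). For ND6 over WT, 36.3% were higher (2989) and 0.303% lower (25). Leaving out mtDNA-encoded genes gave 15.4% (1270) and 1.17% (96), the median gene at 0 10.4% (858) and 3.75% (309), and an expected count of 5 41.3% (4773) and 0.580% (67). Below 150 UMIs 28.8% (1387) were higher, and with at most 20% mtDNA-encoded UMIs 9.86% (153). Of all called genes, 99.2%, 93.0% and 73.5% were higher under the 3 scalings. Fewer barcodes test fewer genes by construction (1551 in the last alternative). The cause was not tested otherwise.

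The log2 ratio of the mtDNA share, 2.18 in WT and 0.56 in ND6, was positive under every alternative run. It was 2.98 and 0.60 with the median gene at 0, 1.52 and 0.23 without the mtDNA limit, 2.20 and 0.58 against cells of at least 1000 UMIs, 1.94 and 0.27 below 150 UMIs, 2.31 and 0.83 from 150 UMIs, 1.65 and 0.20 with equal weights, and 0.74 and 0.24 with at most 20% mtDNA-encoded UMIs. Of the named genes with a 2-fold ratio 2 changed sign. *Igkc*, ND6 over WT, turned to 0.36 without barcodes led by 1 gene, and *Gm15882*, WT over cells, to 0.29 with at most 20% mtDNA-encoded UMIs. No list with a 2-fold ratio changed sign. Leaving out barcodes found in both libraries gave 60 and 2961 genes in WT. No paired analysis was possible because each genotype has 1 library. Depth limits the WT values of rare cell types most, with 28 UMIs of horizontal and 57 of endothelial markers.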

Other observations

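In 3 low-UMI barcodes a single nuclear gene held at least 25% of all UMIs. In WT these were a barcode with 97 of 156 UMIs from *Igkc* (62.2%) and one with 81 of 115 from *Scgb1a1* (70.4%), a secreted protein of airway epithelium. In ND6 one had 61 of 148 UMIs from *Hbb-bs* (41.2%).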
